A study of Homo sapiens with 4 samples.

Results

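PHGDH, PSAT1, PSPH, SHMT2, MTHFD2, ALDH1L2, ASNS, PCK2, CHAC1 and ATF4 are the enzymes of serine synthesis, their mitochondrial partners in folate metabolism, and the transcription factor ATF4 with further genes that it is known to activate. The 10 genes were chosen by symbol, with earlier results of these data known. Each symbol matched 1 of the 60683 gene identifiers in the deposited tables. They were measured by polyA RNA sequencing in HCT116, an established human colorectal carcinoma line. Cells had been transduced with pSin lentivirus, either empty (2 libraries) or with FOXD2 full-length CDS (2 libraries), which encodes a transcription factor of the forkhead family. Both groups carried the puromycin resistance vector and grew in high glucose DMEM with 10% FBS, antibiotics and 5 µg/ml puromycin, and both are stable lines whose number of clones or transductions the labels do not give. The comparison asks how RNA levels differ when FOXD2 is delivered. The labels do not say that replicates came from separate cultures, so the spread that p-values measure here may be technical.

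Cells make serine from the glycolytic intermediate 3-phosphoglycerate through PHGDH, PSAT1 and PSPH, and mitochondrial SHMT2 and MTHFD2 then pass a carbon of serine to folate, for use in nucleotide and methyl group synthesis. ATF4 is a basic leucine zipper factor whose mRNA is translated more when kinases such as GCN2 and PERK phosphorylate eIF2, in amino acid shortage or endoplasmic reticulum stress. With a C/EBP partner it activates genes of amino acid synthesis, amino acid uptake and tRNA charging. RNA libraries do not measure the translation of ATF4 or the amount of any of these proteins.

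Libraries held 14231338 to 15535817 counts in genes, and as a check of the labels, FOXD2 had 49 and 42 counts with empty vector against 8195 and 7011 with the FOXD2 virus. Of 9 colon epithelial markers, EPCAM (325.6 to 379.8 TPM, a share of transcripts that takes length into account) and KRT8 (1692 to 3178 TPM) were present in every library, CDX1 was at 0 in all 4, and VIL1 and LGR5 had at most 6 and 2 counts. Marker calls stand beside 27.2% higher and 26.4% lower over all 14470 tested genes, and whether they differ from these shares was not tested. Of the 6 tested epithelial markers, 5 were higher with FOXD2, among them KRT8 (log2 fold change 0.85), KRT18 (0.87), KRT19 (1.04) and CDH1 (1.09). CDX2 was lower (-0.51). Of 7 fibroblast markers, 2 had enough counts to be tested and both were higher with FOXD2. The summed level of these 7 was 13.3 and 15.3 CPM (counts scaled to a common library size) with empty vector and 41.5 and 41.0 CPM with FOXD2, while COL1A2, DCN and LUM were at 0 throughout. Of 10 blood and endothelial markers, 4 were tested and 2 were higher, and log2 fold changes of the tested 4 ran from -0.57 to 7.34. The summed level of the 10 was 6.22 and 7.22 CPM against 46.4 and 37.8 CPM, most of it CD68, while PTPRC, CD3E, HBB and CDH5 were at 0 in every library.

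All 10 genes passed the filter on low counts. With FOXD2, 9 of the 10 fell and 0 rose at an adjusted p under 0.05 (edgeR quasi-likelihood test, Benjamini-Hochberg adjustment over all 14470 tested genes), and 0 rose at an unadjusted p under 0.05, with DESeq2 or with limma. Across all tested genes 53.5% were called, 26.4% lower and 27.2% higher, so a call in itself was common. In 6 of the 10 the fall was at least 2-fold, against 2.8% of all tested genes. CPM values of the 2 groups did not overlap for any of the 10, as for 76.1% of all tested genes, and for 9 the FOXD2 libraries were the lower ones, as for 37.2%. The median log2 fold change was -1.35 over the 10 genes and 0.01 over all tested genes, whose quartiles were -0.28 and 0.39. Because the 10 were chosen with earlier results of these data known, these contrasts with all tested genes are a description only. Together the 10 genes held 0.201% and 0.217% of all counts with empty vector and 0.0997% and 0.0961% with FOXD2. In bulk libraries, fewer cells expressing a gene and less RNA per cell cannot be told apart.

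**Figure D1:**
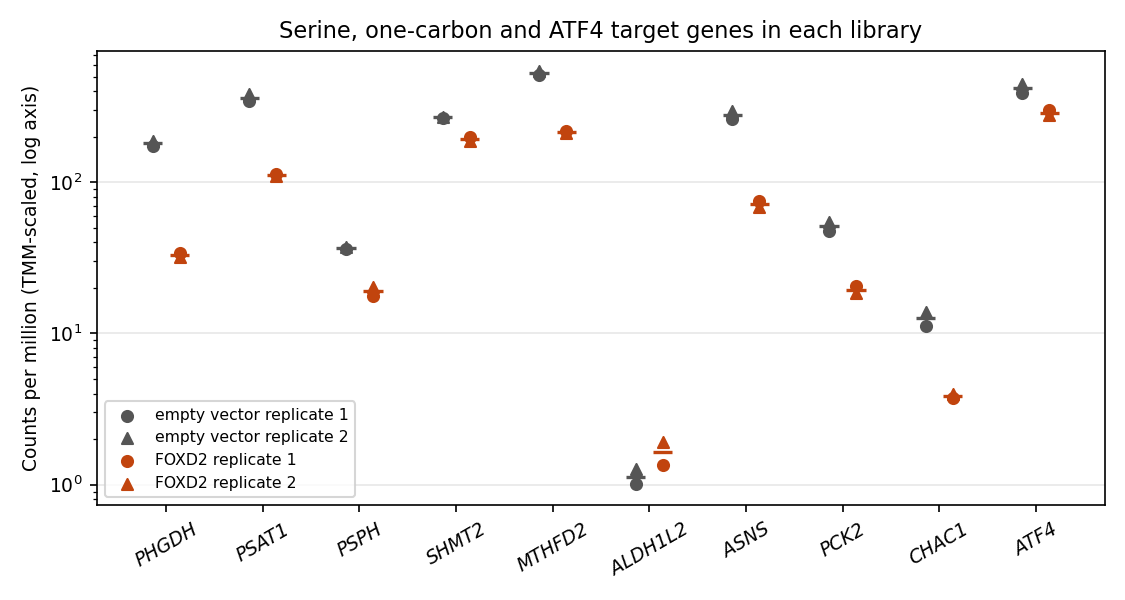
Level of each of the 10 genes in the 4 libraries, in CPM on a log axis, with empty vector libraries in grey and FOXD2 libraries in orange. Each point is 1 library and each short line a group mean. For 9 genes both FOXD2 libraries lie below both empty vector libraries, and for ALDH1L2, with 14 to 28 counts per library, both lie above.

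PHGDH, which oxidises 3-phosphoglycerate in the first step of the serine pathway, fell most. It had 172.9 and 188.3 CPM in empty vector replicates 1 and 2 and 34.0 and 32.1 CPM in FOXD2 replicates 1 and 2. The FOXD2 values were close to each other and far below both controls. The group means, 180.6 ± 10.9 and 33.1 ± 1.37 CPM (SD, n = 2 each), differed by -2.45 in log2 fold change (SE 0.08, edgeR adjusted p = 7.3e-34), or 5.46-fold lower, which ranked 31 from the lowest of the 14470 tested genes. PHGDH lies at chr1:119648411-119744226, plus strand (GRCh38, GENCODE 29, as for all gene positions here).

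PSAT1, the aminotransferase of the next step (chr9:78297143-78330093, plus strand), had 343.7 and 381.5 CPM with empty vector and 112.9 and 109.9 CPM with FOXD2. It fell by 1.70 on the log2 scale (SE 0.06, edgeR adjusted p = 2.2e-30). PSPH, the phosphatase that releases serine (chr7:56011051-56051604, minus strand), had 36.3 and 37.2 CPM against 17.7 and 20.3 CPM, and its log2 fold change was -0.95 (SE 0.10, edgeR adjusted p = 1.8e-11). The mRNAs of all 3 enzymes of the pathway were thus lower in both FOXD2 libraries, by amounts that differed from step to step. The ratio of PHGDH to PSPH, both in TPM, was 4.41 and 4.50 with empty vector and 1.75 and 1.80 with FOXD2. The ratio of PSAT1 to PSPH was 6.75 and 7.19 against 4.29 and 4.16. Both ratios had groups that did not overlap, and with 2 libraries against 2 an exact permutation test cannot go below 0.333, so these ratios are given without a test.

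SHMT2, which takes the carbon from serine in mitochondria and leaves glycine (chr12:57229327-57234935, plus strand), had 267.1 and 270.7 CPM with empty vector and 198.1 and 187.8 CPM with FOXD2. It fell by 0.48 on the log2 scale (SE 0.06, edgeR adjusted p = 8.6e-10), the smallest of the 9 falls. MTHFD2, the dehydrogenase and cyclohydrolase that acts on the folate product of SHMT2 (chr2:74198562-74217565, plus strand), had 512.3 and 541.4 CPM against 218.0 and 212.7 CPM. It fell by 1.29 on the log2 scale (SE 0.06, edgeR adjusted p = 7.3e-27). In both cases the libraries of each group lay close together and the groups were apart. The ratio of SHMT2 to MTHFD2 in TPM was 0.558 and 0.512 with empty vector and 0.931 and 0.934 with FOXD2, so the 2 mRNAs were near parity in FOXD2 libraries.

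ALDH1L2, a mitochondrial enzyme that oxidises formyl-folate to carbon dioxide (chr12:105019784-105084577, minus strand), was scarce. It had 14 and 19 counts with empty vector and 21 and 28 with FOXD2. Both FOXD2 libraries were above both controls, yet the difference did not pass the test (log2 fold change 0.52, SE 0.39, edgeR adjusted p = 0.27). The ratio of its count shares, FOXD2 to empty vector, was 1.50 with an exact 95% interval of 0.942 to 2.40 that covers counting error only. Most of its span overlaps C12orf45 on the opposite strand, and the posterior SD of its count, which measures how far reads were shared among genes, was 0 in all 4 libraries.

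ASNS, which makes asparagine from aspartate (chr7:97852118-97872542, minus strand), had 262.9 and 296.1 CPM with empty vector and 75.5 and 68.7 CPM with FOXD2. It fell by 1.95 on the log2 scale (SE 0.07, edgeR adjusted p = 2.0e-28), 3.87-fold, next after PHGDH among the 10. The whole gene lies within AC079781.5 on the same strand, to which the estimate assigned 84, 161, 54 and 40 counts in the order of libraries above. PCK2, the mitochondrial enzyme that makes phosphoenolpyruvate from oxaloacetate (chr14:24094053-24110598, plus strand), had 47.8 and 54.9 CPM against 20.5 and 18.4 CPM, and its log2 fold change was -1.40 (SE 0.10, edgeR adjusted p = 3.3e-18). Groups of both genes were well apart.

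CHAC1, which cleaves glutathione (chr15:40952962-40956519, plus strand), was lower in both FOXD2 libraries, at 3.73 and 3.96 CPM, than with empty vector, at 11.2 and 13.9 CPM. These stand for 58 and 58 counts against 157 and 210. The log2 fold change was -1.71 (SE 0.18, edgeR adjusted p = 8.7e-12), with a larger error than for the abundant genes. In TPM the FOXD2 libraries were 3.68 and 5.32 although their counts were equal. The mean transcript length assigned to CHAC1 was 1503 bases in FOXD2 replicate 1 and 1181 in FOXD2 replicate 2. Library totals, which also enter TPM, were 15340166 and 14231338 counts.

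ATF4 mRNA (chr22:39519695-39522685, plus strand) had 390.9 and 445.0 CPM with empty vector and 300.5 and 278.4 CPM with FOXD2. It fell by 0.53 on the log2 scale (SE 0.06, edgeR adjusted p = 4.7e-10), or 1.44-fold. Groups did not overlap, and this change ranked 1561 from the lowest of all tested genes. ASNS stood at 0.458 and 0.474 of ATF4 in TPM with empty vector and at 0.193 and 0.182 with FOXD2. PHGDH stood at 0.353 and 0.330 of ATF4 and then at 0.0956 and 0.106, so the mRNAs of both enzymes fell relative to that of the factor.

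**Figure D2:**
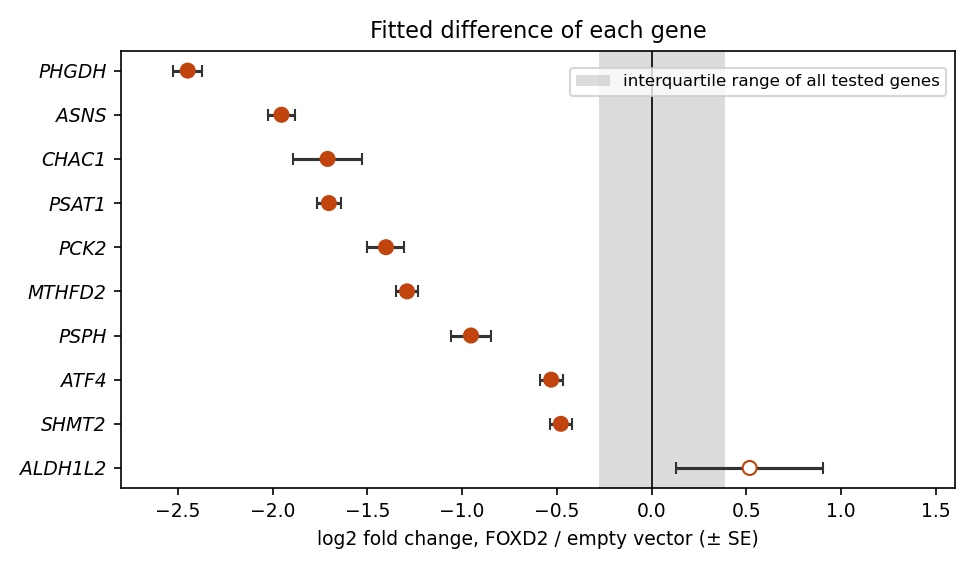
Fitted log2 fold change of each of the 10 genes, FOXD2 over empty vector, with bars of ± 1 standard error; filled points passed the test and the open point did not. The grey band is the interquartile range of all 14470 tested genes, -0.28 to 0.39, and 9 genes lie to its left, from PHGDH at -2.45 to SHMT2 at -0.48.

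Per transcript length, the order of the 10 genes changed between groups. With empty vector, mean TPM ran from ATF4 (432.6) through MTHFD2 (340.6), PSAT1 (230.9), ASNS (201.9), SHMT2 (182.1), PHGDH (147.6), PCK2 (36.9), PSPH (33.1) and CHAC1 (12.2) to ALDH1L2 (0.225). With FOXD2, ATF4 (303.6 TPM) and MTHFD2 (141.9 TPM) stayed in front, SHMT2 (132.2 TPM) moved ahead of PSAT1 (72.8 TPM), ASNS (57.0 TPM) and PHGDH (30.6 TPM), and PSPH (17.2 TPM) ahead of PCK2 (13.0 TPM). CHAC1 (4.50 TPM) and ALDH1L2 (0.655 TPM) remained last. Neighbours in either order had ranges over libraries that did not overlap. Empty vector replicate 2 was above replicate 1 in all 10 genes on the CPM scale, whereas 50.9% of all tested genes were. FOXD2 replicate 2 was above replicate 1 in 3 of the 10, against 50.2% of all tested genes. When either empty vector library was left out, the same 9 genes stayed lower past the threshold.

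Promoter sequence is given as a description, since the amino acid response element bound by ATF4 with C/EBP partners has a known form, TGATGNAA. Whether any motif bears on these changes was not tested. RefSeq promoter windows of GRCh38.p14, 250 bases before to 50 after each start, were at hand for 7 of the 10 genes. Searched on both strands, TGATGNAA was in 3.62% of all 35116 windows, for 4.46% of all genes with a window and 2.60% of those tested, and in those of 2 of the 7 genes, ASNS and CHAC1. It was also in the windows of 3 of 17 other ATF4 targets, JDP2, which fell, ATF3, at a log2 fold change of -0.01, and FGF21, at 0 counts. The CCAAT box (CCAAT or ATTGG) was in 34.6% of all windows, for 39.7% of all genes and 43.3% of those tested, and in those of 5 of the 7, PHGDH, PSAT1, MTHFD2, PCK2 and CHAC1. The stretches below are shown for the element in ASNS and CHAC1 and for the CCAAT boxes of the serine and folate enzymes that fell at least 2-fold; they read 5′ to 3′ on the gene's strand, and capitals mark TGATGNAA or its reverse complement in ASNS and CHAC1 and CCAAT in the other 3.
ASNS, chr7:97872459-97872488, minus strand: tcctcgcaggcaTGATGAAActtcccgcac
CHAC1, chr15:40953251-40953280, plus strand: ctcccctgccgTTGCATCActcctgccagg
PHGDH, chr1:119711850-119711879, plus strand: tgagtatttccgtCCAATcaaaaggagact
PSAT1, chr9:78296925-78297084, plus strand: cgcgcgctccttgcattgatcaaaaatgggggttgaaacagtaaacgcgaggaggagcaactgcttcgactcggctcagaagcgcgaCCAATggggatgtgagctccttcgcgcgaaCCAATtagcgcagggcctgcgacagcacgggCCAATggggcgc
MTHFD2, chr2:74198415-74198554, plus strand: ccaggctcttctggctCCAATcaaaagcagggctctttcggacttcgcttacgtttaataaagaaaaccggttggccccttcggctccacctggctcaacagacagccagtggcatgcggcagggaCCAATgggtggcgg

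The first base of the element lay 68 bases before the RefSeq start in ASNS and, on the other strand, 209 bases before it in CHAC1. The stretches of ASNS, CHAC1 and PHGDH lay before a RefSeq start yet within the gene spans given above. They overlapped annotated exons of 4, 2 and 3 transcripts of the same gene, in that order. The MTHFD2 stretch overlapped an exon of 1 transcript of AC073263.2, and the PSAT1 stretch overlapped exons of 0 transcripts. PSAT1 held 3 CCAAT boxes, at 113, 83 and 52 bases before its start, and MTHFD2 held 2, at 184 and 74. The forkhead motif GTAAACA was in 3.42% of all windows (4.19% of genes, 3.48% of those tested) and in none of the 7, which says only that these letters are not in these windows. The E-box CACGTG was in 7.26% of windows (8.77% of genes, 12.5% of those tested) and, of the 7 genes, in ATF4 alone, and the antioxidant response element TGACNNNGC was in 13.3% of windows (16.1% of genes, 19.4% of those tested) and in MTHFD2 alone, after its start. Of the 10767 tested genes with a window, 291 were at least 2-fold lower with FOXD2, ASNS and CHAC1 among them, and 18 of these (6.19%) held TGATGNAA. Among the same 291 genes, 3.78% held the forkhead motif and 11.7% the E-box. The CCAAT box was in 46.7% of the 291 and the antioxidant response element in 17.9%. Whether any of these shares differs from that of all tested genes was not tested. A match is a description of letters and not a binding site.

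Of 4 tested relatives of these genes, 1 fell and 1 rose, beside 26.4% lower and 27.2% higher over all tested genes. Cytosolic SHMT1, which runs the reaction of SHMT2 outside mitochondria, had 40.2 and 41.1 TPM with empty vector and 34.9 and 37.8 TPM with FOXD2 (log2 fold change -0.14, SE 0.08, edgeR adjusted p = 0.14). MTHFD2L, the relative of MTHFD2, had 7.22 and 7.88 TPM against 5.76 and 6.61 TPM (-0.28, SE 0.15, edgeR adjusted p = 0.12). Groups of both genes were apart in TPM and in CPM, as for 76.1% of all tested genes in CPM, although neither difference passed the test. Whether each pair differed in its response was not tested. CHAC2, which cleaves glutathione like CHAC1, fell by 0.41 on the log2 scale (SE 0.15, edgeR adjusted p = 0.018). That call was lost without empty vector replicate 1 or 2 (p then 0.053 and 0.11) or FOXD2 replicate 2 (0.067), and with DESeq2 (0.19). ATF5, a factor related to ATF4 and likewise under translational control, rose from 27.8 and 29.3 TPM to 39.0 and 38.1 TPM (0.41, SE 0.09, edgeR adjusted p = 6.5e-05), and the ratio of ATF4 to ATF5 went from 14.8 and 15.5 to 8.01 and 7.72. PCK1 had 1 count in all and ALDH1L1 at most 4 in any library, and neither was tested.

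**Figure D3:**
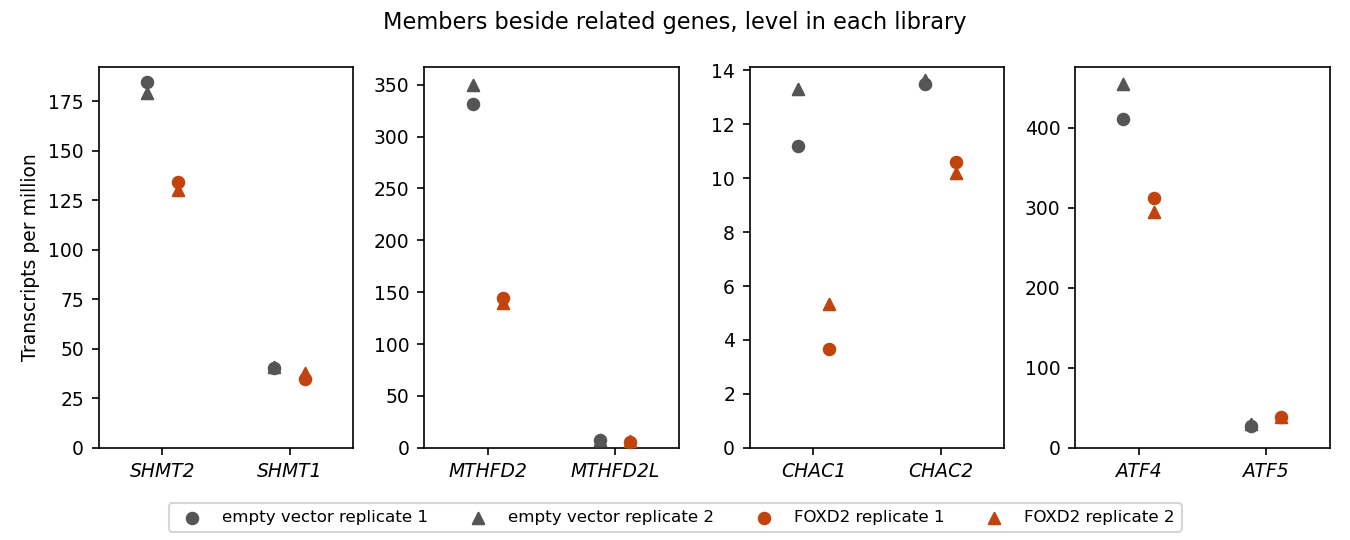
Levels in TPM of SHMT2, MTHFD2, CHAC1 and ATF4, each beside a relative, with 1 point per library. Each panel has its own axis from 0. MTHFD2 fell from 331.2 and 350.1 to 144.3 and 139.4 TPM and MTHFD2L went from 7.22 and 7.88 to 5.76 and 6.61 TPM, which did not pass the test, and ATF5 was higher with FOXD2 where ATF4 was lower.

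The genes around these 10 are described below by pathway list, each change being a fitted log2 fold change, FOXD2 over empty vector, with its SE, and calls being those of edgeR after adjustment over all tested genes. Counts of calls in each list stand beside 26.4% lower and 27.2% higher over all tested genes, and several lists were near those shares. The glycolytic enzymes near the branch point to serine were lower by small amounts: 5 of 7 tested fell and 0 rose (also at an unadjusted p under 0.05, with DESeq2 or with limma), with a median log2 fold change of -0.15. PGAM1, which draws 3-phosphoglycerate onward in glycolysis, fell by 0.40 (SE 0.05) and ENO1, the next enzyme, by 0.42 (SE 0.05). PGK1, which makes 3-phosphoglycerate, fell by 0.18 (call lost without empty vector replicate 1) and PKM by 0.15 (call lost without either empty vector library). With library totals as the only scaling the count was 2, and with a replicate block 3. PHGDH stood at 0.258 and 0.278 of PGAM1 in TPM with empty vector and at 0.0721 and 0.0712 with FOXD2.

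In the folate pathway, 3 of 7 tested cytosolic enzymes fell and 1 rose (median -0.14). MTHFD1, which carries out 3 folate reactions in the cytosol, fell by 0.58 (SE 0.06), and TYMS, which makes thymidylate, by 0.55 (SE 0.06). Of 12 other mitochondrial folate and glycine cleavage genes, 7 fell and 2 rose (median -0.32). GCSH, the carrier protein of glycine cleavage, fell by 0.85 (SE 0.07) and MTHFD1L, which releases formate, by 0.60 (SE 0.07). The fall of DMGDH, at 17 and 13 against 5 and 8 counts (-1.25, SE 0.51, adjusted p = 0.037), was lost without any 1 of the 4 libraries. AMT, the aminomethyltransferase of glycine cleavage, rose by 1.76 (SE 0.32) from 16 and 16 to 57 and 56 counts, and SFXN3, a serine carrier, by 1.09 (SE 0.09). Of 5 tested methionine cycle and transsulfuration genes, 3 fell, AHCY, MAT2B and MTRR, by 0.32 to 0.36, and the MTRR call was lost with both limma fits on TPM (limma adjusted p = 0.066 in each). CTH, which makes cysteine, rose by 0.44 (SE 0.15), a call lost without either empty vector library or FOXD2 replicate 2.

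Other enzymes of amino acid synthesis were also mostly lower, 8 of 11 tested, with 1 higher (median -0.35). GPT2, the mitochondrial alanine aminotransferase, fell from 68.8 ± 5.22 to 29.5 ± 1.85 CPM (SD, n = 2 each), by 1.22 on the log2 scale (SE 0.09, edgeR adjusted p = 5.4e-18). The single rise, ASL at 0.20 (SE 0.09), was lost without any 1 library and with a replicate block.

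Amino acid transporters fell in 8 of 14 tested cases and rose in 2 (median -0.60). SLC7A5, the light chain of the large neutral amino acid exchanger, fell from 1131 ± 81.0 to 371.8 ± 30.1 CPM (SD, n = 2 each; log2 fold change -1.60, SE 0.06, edgeR adjusted p = 1.6e-23). Its heavy chain SLC3A2 fell by 0.88 (SE 0.07) and SLC1A4, a carrier of serine and alanine, by 1.29 (SE 0.15). SLC6A9, a glycine transporter, rose by 2.02 (SE 0.13). SLC7A11, the cystine exchanger and a known ATF4 target, was at -0.06 (SE 0.07, edgeR adjusted p = 0.47). Of the 20 cytosolic aminoacyl-tRNA synthetases, 16 fell and 1 rose (median -0.51). AARS1, which charges alanine tRNA, fell by 1.22 (SE 0.06), GARS1, for glycine, by 0.90 (SE 0.06), and SARS1, for serine, by 0.48 (SE 0.07), whereas QARS1, for glutamine, rose by 0.31 (SE 0.06).

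Among 17 tested ATF4 targets of the stress response, 9 fell and 3 rose (median -0.39). This list shares GPT2, ALDH18A1, PYCR1 and CTH with the enzymes above. It also shares PPP1R15A with the eIF2 list below, and JDP2, ATF3, CEBPB and DDIT3 with the list of ATF4 partners, so these are not separate counts. TRIB3, a pseudokinase that restrains ATF4, fell from 70.5 ± 14.5 to 30.6 ± 1.76 CPM (SD, n = 2 each; -1.20, SE 0.13, edgeR adjusted p = 1.5e-05), JDP2, a repressor of the same factor family, by 1.24 (SE 0.16), and STC2, a secreted glycoprotein, by 1.10 (SE 0.11). GDF15, a secreted stress hormone also controlled by p53, rose from 88.3 ± 10.6 to 462.6 ± 73.9 CPM (2.39, SE 0.18, edgeR adjusted p = 0.0032). DDIT3, which encodes CHOP, was at -0.37 (SE 0.17, edgeR adjusted p = 0.065) and ATF3 at -0.01 (SE 0.15). Targets of ATF4 therefore did not all move in 1 direction in these libraries.

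Upstream of ATF4, the kinases and phosphatase subunits of eIF2 and its exchange factor were mixed, with 5 of 12 lower and 2 higher (median -0.02). EIF2AK4, which encodes the amino acid sensor GCN2, fell from 112.6 ± 1.92 to 73.9 ± 1.51 CPM (-0.61, SE 0.07, edgeR adjusted p = 1.3e-10), and PPP1R15A, whose product with phosphatase 1 removes the eIF2 phosphate, rose by 0.72 (SE 0.09). EIF2AK3, which encodes PERK, was at 0.27 (SE 0.12, edgeR adjusted p = 0.053). The falls of EIF2B3 and PPP1R15B were lost without empty vector replicate 1, that of EIF2AK1 without either empty vector library, and the rise of EIF2AK2 without replicate 2 of either group. The number lower ranged from 1 to 5 when 1 library was left out. Of 12 ATF4 partners and related factors, 5 fell and 2 rose (median -0.18), among them CEBPG, a partner of ATF4 on the amino acid response element, which fell by 0.61 (SE 0.08), and MAFF, which rose by 0.88 (SE 0.14). Of 10 tested genes reported to regulate serine synthesis genes, 4 fell and 1 rose (median -0.09). YBX3 fell by 0.96 (SE 0.06) and EHMT2, the histone methyltransferase G9a, by 0.51 (SE 0.07), while MYC was at 0.11 (SE 0.06, edgeR adjusted p = 0.12).

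Endoplasmic reticulum chaperones and genes of the unfolded protein response moved both ways, with 7 of 20 lower and 8 higher (median -0.09). MANF fell by 0.50 (SE 0.07) and the chaperone HSPA5 by 0.34 (SE 0.05), while EDEM1 rose by 0.53 (SE 0.11) and SYVN1 by 0.44 (SE 0.08), both of which act in disposal of misfolded proteins. The EDEM1 call was lost with limma on log2(TPM + 1) and log2(TPM + 0.1), at 0.22 (adjusted p = 0.39) and 0.25 (0.40). Over the 13 pathway lists together, 138 of 153 genes were tested, of which 76 fell and 22 rose. Over all tested genes 26.4% were lower and 27.2% higher. The lists were chosen with earlier results of these data known, so this total is a description only.

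**Figure D4:**
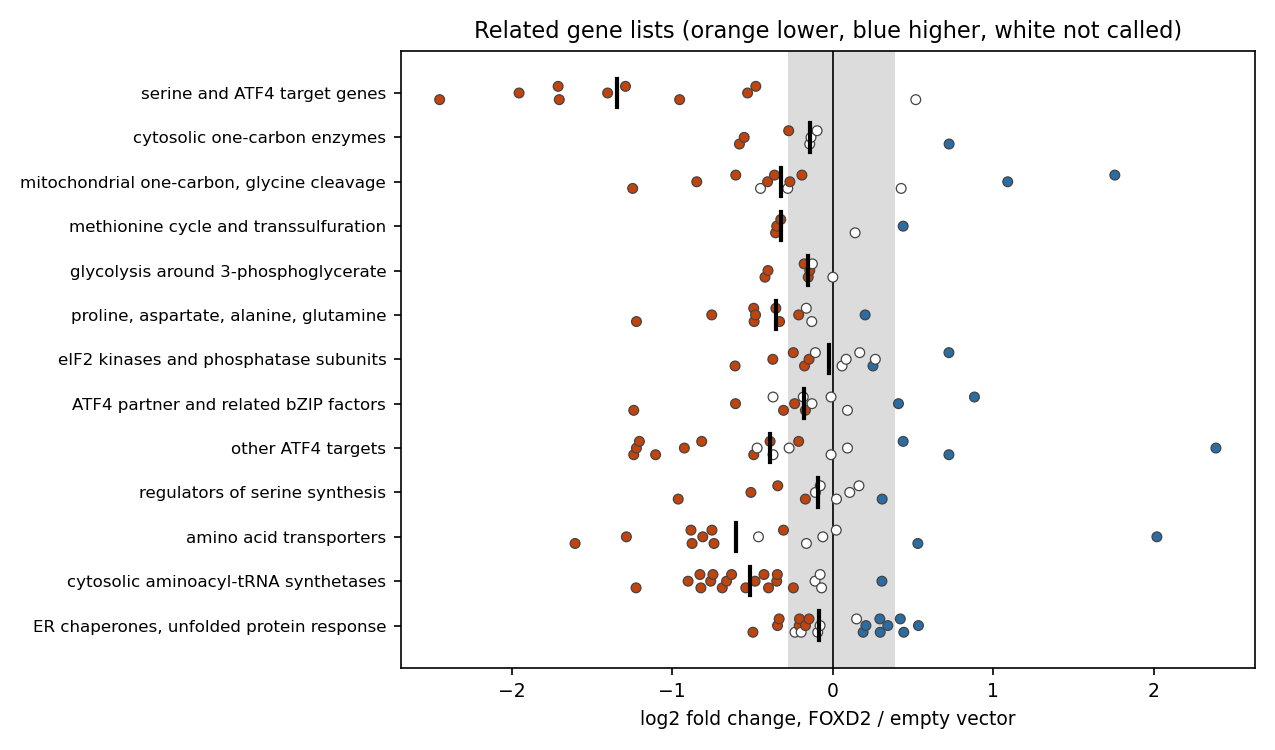
Log2 fold change, FOXD2 over empty vector, of each tested gene of the 10 chosen genes and of 12 of the 13 pathway lists (all but the close relatives), with 1 point per gene and a bar at the median of each list. Orange points were lower and blue points higher past the threshold, white points did not pass, and the grey band is the interquartile range of all tested genes. The bar of the 10 genes is at -1.35, those of the transporters and tRNA synthetases at -0.60 and -0.51, and that of the endoplasmic reticulum genes at -0.09.

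By a rule of likeness, the Euclidean distance over the 4 libraries between a gene's centred log2 CPM and the mean profile of the 10, the nearest other genes, among those averaging 1 or more in log2 CPM, were FABP5 (distance 0.0516, log2 fold change -1.16), MRAP2 (0.0644, -1.31), SLC45A1 (0.0806, -1.31), UNC5B (0.0819, -1.18) and GPT2 (0.0852, -1.22). MRAP2 was scarce, at 2.79 and 3.31 CPM with empty vector and 1.22 and 1.23 CPM with FOXD2, and its call was lost with DESeq2 (DESeq2 adjusted p = 0.0504). The 10 genes themselves lay between 0.116 (MTHFD2) and 1.70 (ALDH1L2) from their mean. With 4 libraries this measure ranks genes mainly by the size of the difference between groups.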

How the data were processed

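RNA was measured in 4 libraries, with groups taken from the labels. The submitters' processing notes name the aligner STAR (2.7.2b), the quantifier RSEM (1.2.31) and the GRCh38 (hg38) build. The annotation release and strand setting are not given in the sources used here. Per the file headers, the authors deposited RSEM expected counts, which share reads that map to several genes and need not be whole, and TPM. The posterior SD of the count was at most 1.24% (ASNS) among the 10 genes and 0 in 8 of them, and pseudogenes named after PSAT1, PSPH, MTHFD2, ASNS and ATF4 held few or no counts. Per the file headers the tables also give the mean transcript length of each gene.

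Expected counts were rounded. Groups were compared with edgeR 4.0.16 in R 4.3.3 (quasi-likelihood test, TMM, filterByExpr, robust fit, both directions, no block), with Benjamini-Hochberg adjustment over 14470 genes at 0.05. The fit was tested on simulated data with 200 changed genes, whereas 53.5% of all tested genes were called here. That simulation does not show how the fit performs when so many genes change. CPM uses TMM-scaled library sizes, and fold changes are fitted log2 ratios. The SE of a fitted ratio was derived from the edgeR test, as its absolute value divided by the square root of the F statistic. It leaves out the degrees of freedom of that test, so calls rest on the adjusted p-values. A count of 0 allows up to 3 counts, between 0.193 and 0.211 CPM, for counting error only. The chi-square per degree of freedom was 2.52 and 3.91 within groups and 50.3 to 54.1 across them, so no pair agreed within sampling noise.

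The members, gene lists and tests were chosen with earlier results of these data known, so lists are described by counts and medians. Beside all 10 genes and the close relatives, the text names from each list at most 4 genes in each direction, those past the threshold with the largest change, a few further list genes chosen after their values were seen (SARS1, SLC7A11, DDIT3, ATF3, EIF2AK3, MYC), and the 5 genes nearest in profile. Some list genes that this rule selects are not reported here. Symbols were found for 60370 of 60683 identifiers. Alternatives were RLE factors, totals only, no filter, a filter of 1 CPM in 2 libraries, DESeq2 1.42.0, limma 3.58.1 (voom, or on log2 of TPM plus 1 or 0.1), a replicate block, and leaving out each library. Same-numbered replicates were checked for shared deviations.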

Additional observations from a re-analysis of the deposited data

How the results depend on the processing

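Over the 13 alternatives, 9 of the 10 genes stayed lower and past the threshold, and ALDH1L2, which the TPM filter removed from 2 alternatives, stayed higher and short of it in the other 11 (0.25 to 0.74). The log2 fold change ranged from -2.51 to -2.24 for PHGDH, from -1.86 to -1.28 for CHAC1, from -0.63 to -0.44 for ATF4 and from -0.53 to -0.41 for SHMT2, and the largest adjusted p of a called gene was 0.0035 (CHAC1).

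Over all genes, 3929 were higher and 3816 lower. DESeq2 called 2414 higher, limma on log2(TPM + 1) and log2(TPM + 0.1) called 2366 and 2322 lower, and with 1 library left out, where the lone library is taken to vary as the other group does, 3146 to 3579 were higher and 3046 to 3650 lower. Labels do not say that replicate numbers pair the samples, and the correlation of same-numbered deviations was -0.0989. With a replicate block 3680 genes were higher and 3494 lower, proline and related enzymes had 0 higher (1 without it), glycolytic enzymes 3 lower (5) and eIF2 genes 3 lower (5).

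Small counts in lists moved as follows. Higher calls in the methionine list (1) were 2 with totals only, with the 1 CPM filter and with voom, and 0 with DESeq2 and both TPM fits, and 0 to 1 with a library left out. In the proline list (1) they were 0 with RLE, no filter, DESeq2, voom, both TPM fits and every library left out. In the eIF2 list (2) they were 4 with totals only and with the 1 CPM filter, 1 with DESeq2, voom and both TPM fits, and 1 to 3 with a library left out. In the regulator list (1) they were 2 with totals only and 1 to 2 with a library left out. In the endoplasmic reticulum list (8) they were 5 with DESeq2 and both TPM fits, and 5 to 8 with a library left out. Lower calls in the mitochondrial folate list (7) were 4 and 3 with the TPM fits. In the glycolytic list (5) they were 2 with totals only and 2 to 6 with a library left out. Among close relatives (1) they were 0 with DESeq2 and 0 to 1 with a library left out. In the eIF2 list (5) they were 3 with totals only, DESeq2 and both TPM fits, and 1 to 5 with a library left out. In the partner list (5) they were 3 with totals only and DESeq2, 2 with both TPM fits and 3 to 6 with a library left out. In the regulator list (4) they were 2 and in the endoplasmic reticulum list (7) 3 with both TPM fits.

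On TPM, EIF2AK1 turned from -0.18 to 0.027 and 0.027, and CREB1 from -0.24 to 0.12 and 0.13, with pseudocounts of 1 and 0.1; the cause was not tested. Of 70 other named genes, 19 changed their call under some alternative. ALDH1L2 rests on 14 to 28 counts per library.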

Other observations

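The mean transcript length that the authors' tables assign to a gene differed between libraries for several of the 10 genes. For PHGDH it was 1733 and 1769 bases with empty vector and 1665 and 1551 bases with FOXD2, and for PCK2 it was 1951 and 1977 bases against 2175 and 2101 bases. For ASNS it was 1996 and 1916 bases against 1806 and 1887 bases. Groups did not overlap for these 3 genes, nor for SHMT2, ATF4 and ALDH1L2. How common such a separation in length is over all genes was not computed. For PSAT1 the length ranged from 2174 to 2197 bases over the 4 libraries. ALDH1L2 had 5233 and 7879 bases against 4341 and 3011 bases, at 14 to 28 counts. These values are given without a test.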
